A study of Mus musculus with 2 samples.

Results

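The 10 genes described here encode the interleukin 1 and interleukin 18 ligands, the interleukin 1 receptors and natural inhibitors of both. They also encode parts of the enzyme complex that matures the ligands. The genes are Il1a, Il1b, Il1rn, Il1r1, Il1r2, Il1rap, Il18, Il18bp, Casp1 and Nlrp3. They were taken by symbol, and all 10 of 10 had a row among the 32285 genes of both count matrices. The matrices hold single-cell RNA-seq of sorted live cells from MC38 tumors, a mouse colon cancer cell line grown under the skin of female mice aged 6 to 8 weeks, with 1 library from wild-type hosts (written Lmo7+/+ here) and 1 library from hosts lacking Lmo7 in every tissue (Lmo7-/-, C57BL/6 background). The implanted tumor cells came from the same line in both, so the genotype is that of the host cells, and the number of mice behind each library is not given in the sources used here. Because each genotype is 1 library, host genotype and library cannot be told apart, no test between genotypes was possible, and every interval below (95%, exact) covers counting error only.

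The Lmo7+/+ library kept 15562 cells with a median of 3640 UMIs (unique molecular identifiers, each marking 1 captured RNA molecule), and the other library 14537 cells with a median of 3254. Of the deposited barcodes, 279 occurred in both libraries. Lmo7 RNA itself was scarce. In CPM (the counts of a gene per 1000000 counts of the class), macrophage-like cells held 1.81 in the Lmo7+/+ library and 1.25 in the other. Endothelial-like cells held 38.7 and 33.1 CPM, on 14 and 11 counts. Lmo7 RNA was thus still counted in the second library, and these few gene counts could not show whether the gene was deleted. The second library is called the library labelled Lmo7-/- throughout. Cells were sorted into classes by marker genes. Macrophage-like cells numbered 4362 in the Lmo7+/+ library and 5005 in the library labelled Lmo7-/-, monocyte-like cells 747 and 612, dendritic-like cells 140 and 109, CD8 T-like cells 320 and 518, CD4 T-like cells 52 and 83, other T-like cells 135 and 155, fibroblast-like cells 93 and 69, and the endothelial-like class 78 in each. The remaining large class, 6660 and 5560 cells, had low leukocyte markers and fell short of the endothelial and fibroblast gates. Of the 9 classes with at least 50 cells in each library it had the highest Krt14 (38.1 CPM) and Prl2c2 (93.3 CPM), but Epcam was at 3.23 CPM and Krt8 at 1.85 CPM, so it is called leukocyte-low rather than tumor. Dendritic-like cells had at least 2 of 9 markers of type 1 dendritic cells (Itgae 418 CPM, Xcr1 262 CPM against 40.4 CPM in macrophage-like cells). Cadm1 of the same list was lower in dendritic-like than in macrophage-like cells, at 211 against 454 CPM. Dendritic-like cells also held the type 2 marker Mgl2 at 424 CPM, so no subtype is named. The 12 macrophage markers summed to between 203 and 390 CPM in the CD8, CD4 and other T-like, endothelial-like and fibroblast-like classes, against 17644 and 20946 CPM in macrophage-like cells.

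Interleukin 1 is an inflammatory arm of this family. Its ligands IL-1α and IL-1β bind the receptor IL1R1 together with the accessory chain IL1RAP, and a pair of natural brakes oppose them: the receptor antagonist encoded by Il1rn occupies the receptor without signalling, and IL1R2 is a decoy receptor that binds ligand but does not signal. Interleukin 18 drives interferon gamma production by T and NK cells and is held in check by the secreted binding protein IL18BP. IL-1β and IL-18 are made as inactive precursors and cleaved by caspase-1, which the NLRP3 inflammasome activates, so RNA alone does not report active cytokine.

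The promoter windows of 3 genes are shown because Il1a and Il1b, which lie near each other on chromosome 2, both had most of their counts in macrophage-like cells, and because Il18bp differed most between the libraries there. Each window runs from 250 bases before to 50 bases after the RefSeq start on the minus strand of GRCm38.p6, at chr2:129309923-129310222 for Il1a, chr2:129371090-129371389 for Il1b and chr7:102018183-102018482 for Il18bp. Capitals mark TATAAA in Il1a and Il1b and TTGCNNAA in Il18bp.
Il1a: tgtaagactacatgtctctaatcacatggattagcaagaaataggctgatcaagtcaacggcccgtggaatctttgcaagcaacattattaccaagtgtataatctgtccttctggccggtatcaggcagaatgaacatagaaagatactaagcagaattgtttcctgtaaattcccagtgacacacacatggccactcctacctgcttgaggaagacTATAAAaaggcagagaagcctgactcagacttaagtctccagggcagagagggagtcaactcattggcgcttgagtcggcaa
Il1b: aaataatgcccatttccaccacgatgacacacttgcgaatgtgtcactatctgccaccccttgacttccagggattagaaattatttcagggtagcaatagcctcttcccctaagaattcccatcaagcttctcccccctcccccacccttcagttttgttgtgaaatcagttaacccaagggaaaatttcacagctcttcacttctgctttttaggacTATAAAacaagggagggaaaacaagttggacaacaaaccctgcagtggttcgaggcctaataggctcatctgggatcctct
Il18bp: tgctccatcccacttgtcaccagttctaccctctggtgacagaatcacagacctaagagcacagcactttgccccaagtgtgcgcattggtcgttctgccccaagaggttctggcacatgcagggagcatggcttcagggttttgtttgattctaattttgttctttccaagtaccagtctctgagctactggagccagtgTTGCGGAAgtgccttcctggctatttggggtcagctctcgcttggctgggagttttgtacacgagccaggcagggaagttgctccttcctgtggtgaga
TATAAA began 32 bases before the start of Il1a and 31 bases before that of Il1b. All 10 genes matched the RefSeq table, with 14 windows, and 6 motifs were searched on both strands. TATAAA lay in 13.6% of all 32851 windows and in 4 of the 14, those of Il1a, Il1b, Il18 and Il1rn. TTGCNNAA lay in 10.8% of all windows and in 2 of the 14 (Il18bp and Il1r1). Among the members, TTCNNNGAA (8.3% of all windows) occurred in Il1r2 and TGANTCA (7.81%) in Il1a and Il1rn. An interferon-stimulated response element core (3.44%) occurred in Il1rap, and a kappaB core (4.79%) in Il1rn and Nlrp3. A match is a description of the letters and not a site of binding.

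Il1b, the secreted ligand, was a myeloid RNA. Monocyte-like cells held 4906 CPM (4826 to 4987) in the Lmo7+/+ library and 5541 CPM (5443 to 5640) in the library labelled Lmo7-/-. Macrophage-like cells held 3090 CPM (3067 to 3113) and 3511 CPM (3487 to 3536), and dendritic-like cells 2158 CPM (2046 to 2274) and 1776 CPM (1663 to 1894). These 3 classes kept the same order in both libraries, with no overlap of their counting intervals. The 25 and 7 neutrophil-like cells, too few for the 9 classes, held 218 and 76 Il1b counts in 35512 and 7145 UMIs. That was a larger share than in monocyte-like cells. Macrophage-like cells contributed 73.2% and 78.1% of all Il1b counts and monocyte-like cells 15% and 12.1%. After each cell was thinned to 1500 UMIs, an Il1b UMI was found in 85.7% of 3565 macrophage-like cells and 87.9% of 3949. The share in leukocyte-low cells, whose median depth before thinning was 5651 and 4497 UMIs against 4597 and 3847 in macrophage-like cells, was 5.19% and 3.2%.

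Il1a, a ligand that is active without cleavage by caspase-1, had its highest level in macrophage-like cells. It stood at 174 CPM (168 to 179) and 169 CPM (163 to 174) in macrophage-like cells and at 78.5 CPM (68.7 to 89.3) and 132 CPM (117 to 148) in monocyte-like cells. Dendritic-like cells, rich in Il1b, had 1 Il1a count in the Lmo7+/+ library and 0 in the other, where 3 counts would be 5.77 CPM. Macrophage-like cells held 86.9% and 86.3% of all Il1a counts. The few neutrophil-like cells, outside the 9 classes, held 2 and 4 Il1a counts in 35512 and 7145 UMIs.

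**Figure D1:**
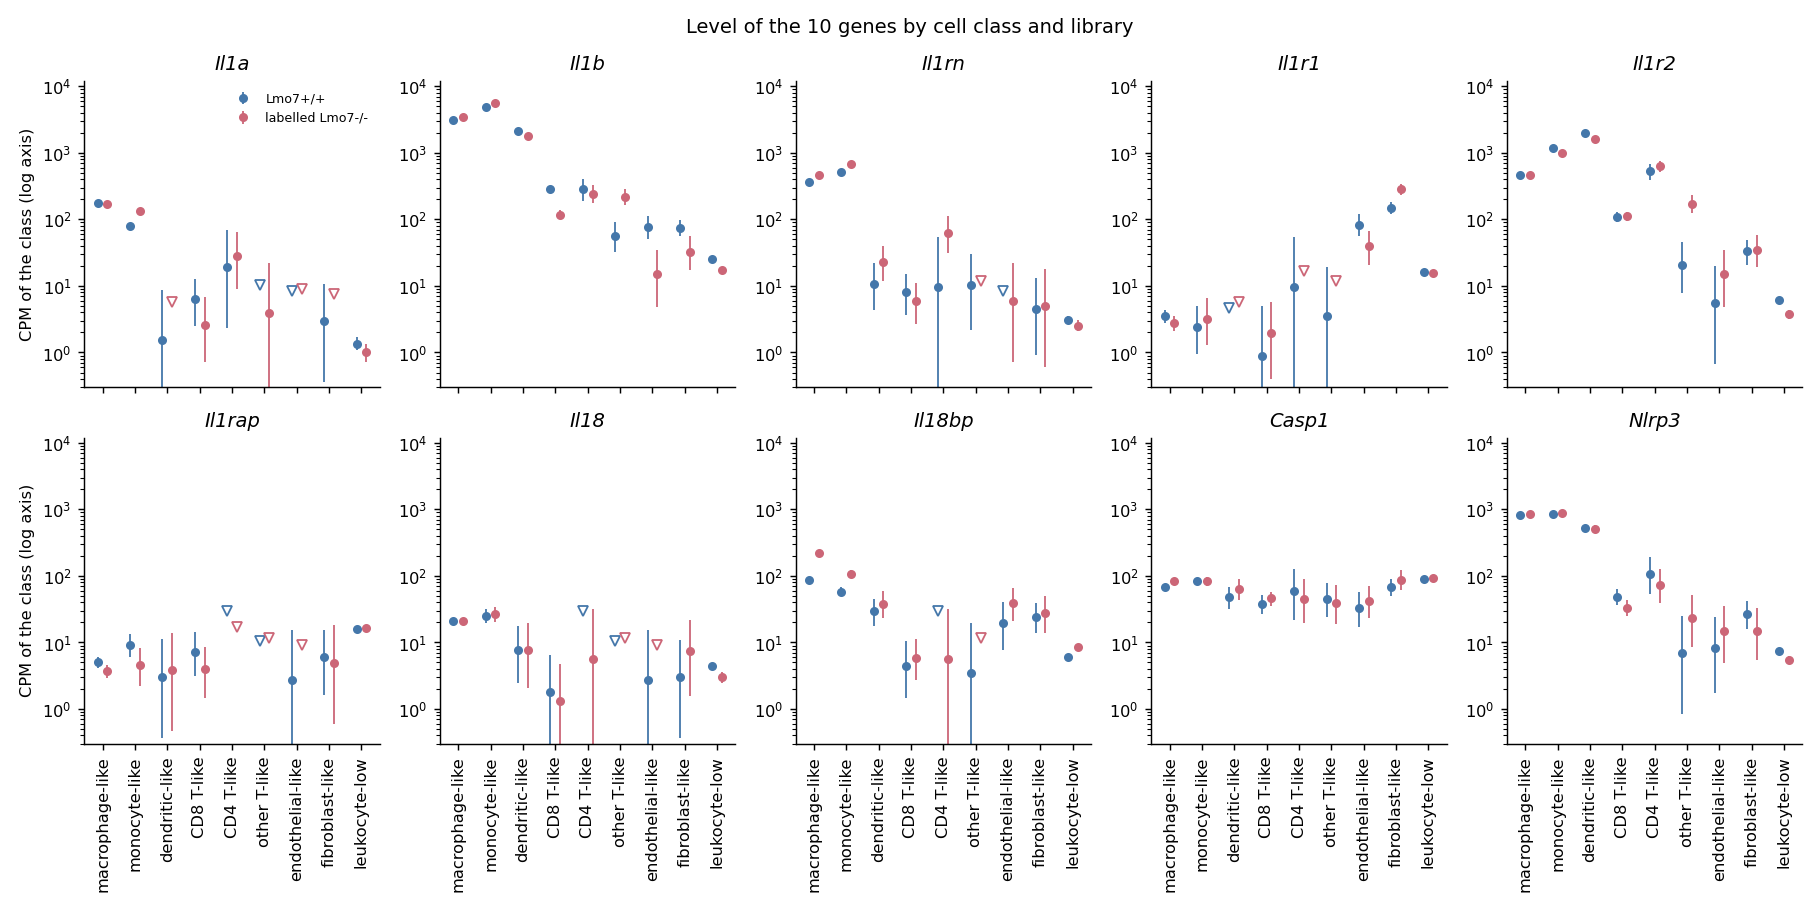
Level of each gene (CPM on a log axis) in the 9 classes with at least 50 cells in each library, Lmo7+/+ in blue and the library labelled Lmo7-/- in red, with 95% Poisson intervals; open triangles mark 3 counts where none was found. Il1a, Il1b, Il1rn and Nlrp3 were highest in macrophage-like or monocyte-like cells, Il1r1 in fibroblast-like cells, and Casp1 stayed between 33.2 and 94.5 CPM in all classes.

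The antagonist Il1rn followed Il1b in macrophages and monocytes but not in dendritic-like cells. Il1rn was at 366 CPM (358 to 374) and 466 CPM (457 to 475) in macrophage-like cells and at 517 CPM (492 to 544) and 681 CPM (647 to 716) in monocyte-like cells. In dendritic-like cells it was at 10.8 CPM (4.33 to 22.2) and 23.1 CPM (11.9 to 40.3). Set against its target, Il1rn gave, per 100 Il1b counts in macrophage-like cells, 11.8 counts (11.6 to 12.1) in the Lmo7+/+ library and 13.3 (13 to 13.5) in the other. In monocyte-like cells these ratios were 10.5 (10 to 11.1) and 12.3 (11.6 to 13). In dendritic-like cells they were 0.499 (0.2 to 1.03) and 1.3 (0.669 to 2.28), so in each library the dendritic-like interval lay below those of both other classes. The few mature dendritic-like cells, 30 and 22, had ratios of 8.43 (4.62 to 14.3) and 7.64 (3.73 to 14.1). These intervals overlapped those of macrophage-like and monocyte-like cells. The few neutrophil-like cells, 25 and 7, had ratios of 22 (15.8 to 30.2) and 35.5 (22 to 55.8). Capture can differ between 2 genes, so these ratios are compared between classes and not read as numbers of protein.

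The decoy receptor Il1r2 was highest in dendritic-like cells among these 3 classes. The few neutrophil-like cells held 115 and 23 Il1r2 counts in 35512 and 7145 UMIs, a larger share than in dendritic-like cells. Dendritic-like cells held 1958 CPM (1852 to 2069) and 1597 CPM (1490 to 1709), monocyte-like cells 1183 CPM (1144 to 1224) and 999 CPM (957 to 1041), and macrophage-like cells 472 CPM (463 to 481) and 464 CPM (455 to 473). Per 100 Il1b counts, Il1r2 gave 90.7 counts (84 to 98) and 89.9 (81.8 to 98.9) in dendritic-like cells, 24.1 (23.2 to 25) and 18 (17.2 to 18.9) in monocyte-like cells, and 15.3 (15 to 15.6) and 13.2 (13 to 13.5) in macrophage-like cells. Dendritic-like cells without an Xcr1 or Clec9a UMI carried more of both genes than those with one. In the Lmo7+/+ library the 86 cells without held 2951 CPM of Il1b and 2843 CPM of Il1r2, against 1040 and 711 CPM in the 54 cells with, and in the library labelled Lmo7-/- the values were 2342 and 2101 CPM in 57 cells against 1219 and 1101 CPM in 52 cells. Il1rn was at or below 23.3 CPM in all 4 of these groups. That split was chosen after the values were seen.

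Il1r2 was also the member with the highest level in CD4 T-like cells, at 527 CPM (396 to 687) and 629 CPM (518 to 757), in 42.3% of 26 and 42.5% of 40 thinned cells. CD8 T-like cells held 108 CPM (90 to 130) and 111 CPM (94.6 to 129), in 6.59% and 8.9% of thinned cells. The share in leukocyte-low cells was 1.14% and 0.664%. Per 100 Il1b counts, CD4 T-like cells had 186 (117 to 303) and 260 (182 to 379) Il1r2 counts, so decoy counts exceeded ligand counts there and not in macrophage-like, monocyte-like or dendritic-like cells. Regulatory T-like cells, 48 and 52 in number, held 133 CPM (76.1 to 216) and 425 CPM (325 to 546). Their ratios were also above 100, at 160 (68.3 to 394) and 678 (335 to 1553), on only 10 and 9 Il1b counts. The CD4 T-like class itself held Foxp3 at 85.6 CPM, against 933 CPM in regulatory T-like cells, so it was not free of this regulatory marker. Il1b in the T-like classes sat in few cells: 1 cell held 20.7% and 18.9% of the CD8 T-like counts, and 38 of the 56 counts of other T-like cells in the library labelled Lmo7-/- came from 1 cell.

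**Figure D2:**
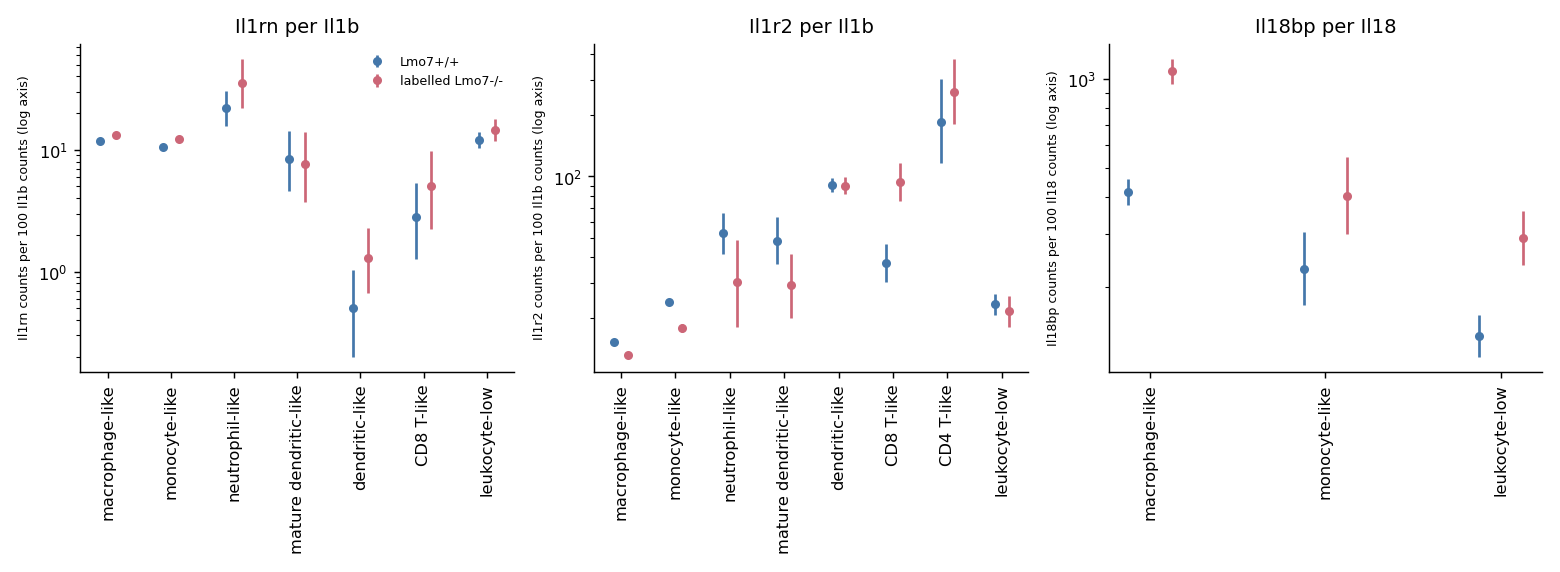
Counts of an inhibitor per 100 counts of the gene it opposes (log axes) by class and library, with 95% exact binomial intervals. Of the classes shown, dendritic-like cells had the lowest Il1rn per Il1b (0.499 and 1.3) with Il1r2 per Il1b near 90, and Il18bp per Il18 was higher in the library labelled Lmo7-/- in all 3 classes shown.

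The signalling receptor lay mainly outside the cells that held the ligand. Il1r1 was at 150 CPM (122 to 182) and 285 CPM (235 to 342) in fibroblast-like cells and at 16.5 CPM (15.4 to 17.5) and 15.5 CPM (14.3 to 16.7) in leukocyte-low cells. The endothelial-like class held 83 CPM (56 to 118) and 39.2 CPM (20.8 to 67). In macrophage-like cells it was at 3.48 CPM (2.76 to 4.34) and 2.77 CPM (2.13 to 3.56), and no Il1r1 count was found in dendritic-like cells. Macrophage-like cells had 13561 and 16735 Il1r2 counts per 100 Il1r1 counts, and fibroblast-like cells 22 (13.2 to 35.2) and 12.3 (6.51 to 21.5). An Il1r1 UMI was found in 18.7% and 31.4% of thinned fibroblast-like cells against 0.393% and 0.228% of macrophage-like cells. The 11 and 4 gamma delta T-like cells held 5 and 1 Il1r1 counts. The accessory chain Il1rap was at 16.1 CPM (15.1 to 17.1) and 16.5 CPM (15.3 to 17.8) in leukocyte-low cells, which held 78.2% and 77.8% of its counts, and at 5.02 and 3.71 CPM in macrophage-like cells.

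Interleukin 18 RNA was low everywhere. Il18 reached 25.3 CPM (19.8 to 31.7) and 26.4 CPM (20 to 34.1) in monocyte-like cells and 21.1 CPM (19.2 to 23) and 20.7 CPM (18.8 to 22.6) in macrophage-like cells, values that overlapped between the 2 classes. Leukocyte-low cells were at 4.4 and 2.98 CPM. Its inhibitor Il18bp was highest in macrophage-like cells, at 87.4 CPM (83.6 to 91.4) in the Lmo7+/+ library and 219 CPM (213 to 225) in the library labelled Lmo7-/-. Monocyte-like cells had 58 CPM (49.6 to 67.4) and 106 CPM (93.2 to 121), dendritic-like cells 29.2 and 38.4 CPM, and leukocyte-low cells 6.01 and 8.65 CPM. Macrophage-like cells held 415 Il18bp counts per 100 Il18 counts (375 to 460) in the first library and 1060 (963 to 1168) in the second. Il18bp (chromosome 7, 102014885 to 102018690, in the GENCODE M21 annotation of GRCm38) overlaps Numa1, which runs on the opposite strand. The length of the overlap was not measured, and whether the counting used strand is not given in the sources used here. Numa1 itself was at 30.3 and 31.1 CPM in macrophage-like cells, a log2 ratio of 0.04 (-0.12 to 0.19) between the libraries. Opposite-strand genes also overlap Il1a, Il1b, Il1r2, Il1rap and Il18. Of these the highest in macrophage-like cells was Bco2, which overlaps Il18, at 9.56 and 9.13 CPM, and Il1bos, which overlaps Il1b, was at 1.5 and 1.21 CPM. On the same strand, Gm38070 overlaps Il1r1 and Gm37347 overlaps Il1r2, and the levels of these partners are not given here.

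The inflammasome genes were distributed differently from each other. The sensor Nlrp3 was myeloid, at 827 CPM (815 to 839) and 838 CPM (826 to 850) in macrophage-like cells, 862 and 879 CPM in monocyte-like cells, 526 and 515 CPM in dendritic-like cells and 7.46 and 5.51 CPM in leukocyte-low cells. The protease gene Casp1 was found in each of the 9 classes: 90.4 CPM (88 to 92.9) and 94.5 CPM (91.7 to 97.5) in leukocyte-low cells, 68.6 CPM (65.3 to 72.1) and 85 CPM (81.2 to 88.9) in macrophage-like cells and 82.9 and 82.8 CPM in monocyte-like cells. Leukocyte-low cells held 66.8% and 58.6% of all Casp1 counts. Nlrp3 counts per 100 Casp1 counts were 1205 and 987 in macrophage-like cells and 8.25 and 5.83 in leukocyte-low cells.

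The myeloid members were also counted, at low level, in leukocyte-low cells, and their proportions to Il1b there can be set beside those of macrophage-like cells. Leukocyte-low cells had 12 and 14.5 Il1rn counts per 100 Il1b counts, 5.27 and 5.72 Il1a counts and 28.9 and 31.5 Nlrp3 counts, which is 0.94 to 1.32 times the macrophage-like ratios of the same library. Il1r2 was at 1.53 and 1.64 times the macrophage-like ratio. The other genes were much further from it: Il18bp was at 8.23 and 7.93 times, Il18 at 25 and 28.9 times, Casp1 at 158 and 223 times, Il1rap at 383 and 893 times and Il1r1 at 566 and 1121 times. Whether RNA free in the suspension contributed to the counts of any of these genes was not tested.

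Across the 18 class and library profiles, the genes most like each member by Pearson r of log2(CPM + 1) were Cd300lf (0.975) and Bcl2a1a for Il1b, Sirpb1c (0.951), Trem3 and Tarm1 for Il1rn, C5ar1 (0.941), Gm5150 and Atp2b1 for Il1a, Pip4k2a (0.95), Gm2a and Ms4a4c for Il1r2, and Aif1 (0.983), Csf2ra and Ccr1 for Nlrp3. For Il1r1 they were Loxl2 (0.972), Csgalnact1 and Mgp, for Il18 Tlr2 (0.924), Igsf8 and Tgfbi, for Il18bp Gpr157 (0.937), Sqor and Gla, for Il1rap Zkscan5 (0.888), Adgrl3 and Coq4, and for Casp1 4930455G09Rik (0.887), Axl and Cstb. The profiles share libraries and differ in depth, so these values only describe likeness among 12269 genes.

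Between the libraries, Il18bp was the member that differed most in macrophage-like cells. Its CPM was 2.5 times as high in the library labelled Lmo7-/-, a log2 ratio of 1.32 (1.25 to 1.4), which was 1.33 without the barcodes found in both libraries, and an Il18bp UMI was found in 23.3% (22 to 24.6) of thinned macrophage-like cells against 10.5% (9.5 to 11.5), with 1.23% and 1.03% in leukocyte-low cells. It was 1 of 10 members past a log2 ratio of 0.5, where 4.79% of 12703 genes with at least 20 counts were that much higher and 8.46% that much lower, and no member was lower by that much. The median log2 ratio of all genes was -0.10. Il1rn was higher by 0.35 (0.31 to 0.39), Casp1 by 0.31 (0.21 to 0.41) and Il1b by 0.18 (0.17 to 0.2). Il1a (-0.04), Il1r2 (-0.02), Il18 (-0.03) and Nlrp3 (0.02) lay near 0, where the signs of Il1a, Il1r2 and Il18 turned with TMM scaling and that of Nlrp3 without doublets or with means over cells. Il1r1, on 79 and 62 counts, was at -0.33 (-0.83 to 0.17) and Il1rap, on 114 and 83, at -0.44 (-0.86 to -0.02). The 12 macrophage markers summed to 17644 and 20946 CPM in these cells and the T cell markers to 6.92 and 7.07 CPM.

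Monocyte-like cells showed Il18bp at a log2 ratio of 0.87 (0.58 to 1.17) and Il1a at 0.75 (0.49 to 1), the 2 of 9 measured members past the fold upwards beside 7.03% of all genes, and Il1rap at -1.02 (-2.23 to 0.07) on 27 and 10 counts, 1 of 9 downwards beside 10.8%. The share of thinned monocyte-like cells with an Il18bp UMI was 9.15% (7.05 to 11.6) and 10.1% (7.62 to 13), intervals that overlapped, and with an Il1a UMI 6.4% (4.65 to 8.56) and 10.7% (8.13 to 13.6). The macrophage markers in this class summed to 8900 and 10265 CPM and the monocyte markers to 5142 and 4572 CPM, and their part in the 2 higher values was not tested. Il1rn was at 0.40 (0.29 to 0.5), while Il1r2 was lower at -0.24 (-0.32 to -0.17). In dendritic-like cells none of 5 measured members passed the fold in either direction, beside 10.9% of all genes higher and 14% lower. Over the whole class Il1b and Il1r2 were lower, at -0.28 (-0.4 to -0.16) and -0.29 (-0.42 to -0.17). Cells with an Xcr1 or Clec9a UMI went the other way, Il1r2 from 711 to 1101 CPM and Il1b from 1040 to 1219 CPM. Their Il1b intervals overlapped. In cells without one, Il1r2 went from 2843 to 2101 CPM and Il1b from 2951 to 2342 CPM. Cells with one made up 54 of 140 and 52 of 109, and the part of this mix was not tested. Split by Cd209a, Mgl2 or Clec10a UMIs, both genes were lower in both parts.

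**Figure D3:**
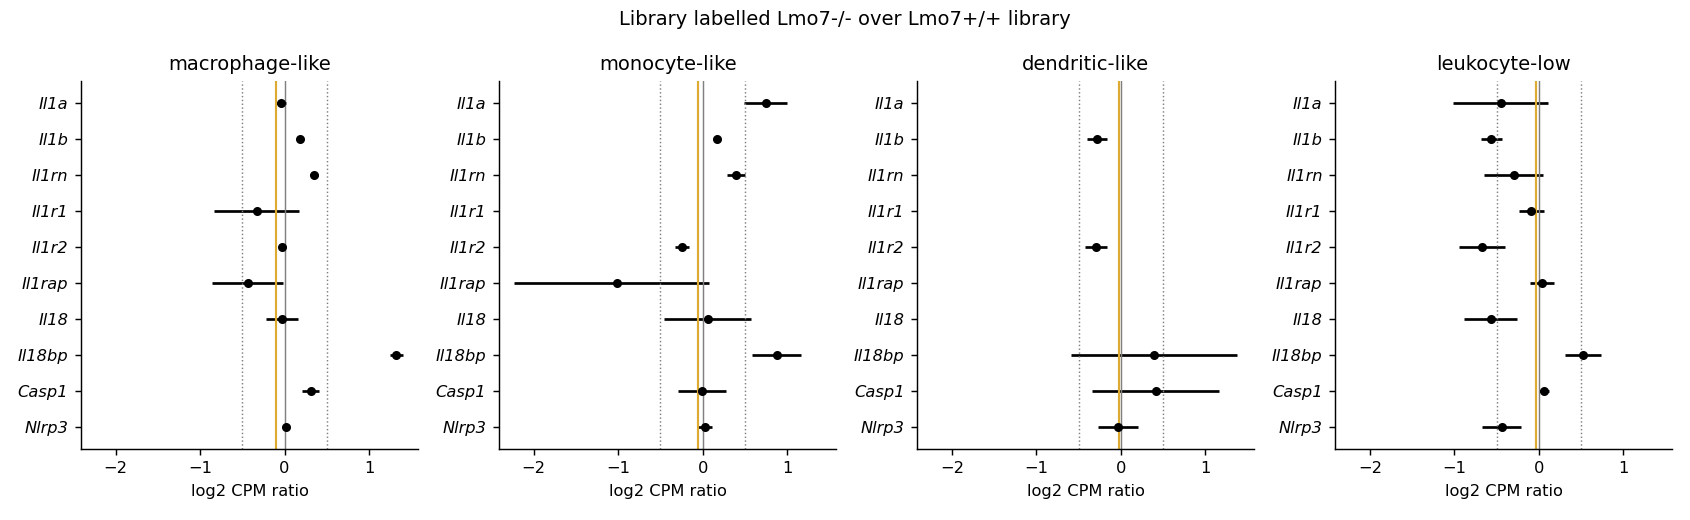
Log2 CPM ratio of the library labelled Lmo7-/- over the Lmo7+/+ library for members with at least 20 counts, with 95% intervals, in 4 classes; dotted lines mark 0.5 and -0.5 and the yellow line the median of all genes. Il18bp lay to the right of 0.5 in macrophage-like (1.32), monocyte-like (0.87) and leukocyte-low cells (0.52).

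In leukocyte-low cells 1 of 10 members was higher beside 5.24% of all genes, Il18bp at 0.52 (0.31 to 0.74), and 3 of 10 were lower beside 5.86%: Il1b at -0.56 (-0.69 to -0.43), Il1r2 at -0.67 (-0.95 to -0.4) and Il18 at -0.56 (-0.88 to -0.25), all from levels of 25.8 CPM or less. The macrophage markers there summed to 120 and 99.6 CPM, lower in the same library, and their part in these 3 differences was not tested. Casp1 (0.06), Il1r1 (-0.09) and Il1rap (0.04) were near 0. In fibroblast-like cells Il1r1 stood at 0.93 (0.53 to 1.33), 1 of 6 measured members beside 11.4% of genes, and Il1b and Nlrp3 were 2 of 6 lower beside 27.6%, Il1b on 50 and 13 counts and Nlrp3 on 18 and 6. Endothelial-like cells had Il1r1 at -1.08 (-2.15 to -0.1) and Il1b at -2.36 (-4.09 to -0.97), 2 of 4 lower beside 17.7%, and Il18bp at 1.02 (-0.42 to 2.58), 1 of 4 higher beside 15.8%. Il1b in this class was on 28 and 5 counts. CD8 T-like cells had Il1b at -1.30 (-1.57 to -1.03) and Nlrp3 at -0.53 (-1.12 to 0.04), 2 of 4 lower beside 14.3%, and none higher beside 7.43%. CD4 T-like cells had Nlrp3 alone past the fold, 1 of 3 lower at -0.55 (-1.83 to 0.75) beside 18.2%, and none higher beside 15.3%. Other T-like cells had Il1b at 1.98 (1.16 to 2.88) and Il1r2 at 3.05 (1.81 to 4.57), 2 of 3 higher beside 14.4%, and none lower beside 15.9%. In these 5 classes at most 6 members could be measured, many on small counts, so their shares are not read against the background. The macrophage markers summed to 257 and 304 CPM in endothelial-like, 305 and 317 CPM in fibroblast-like, 272 and 203 CPM in CD8 T-like and 234 and 248 CPM in other T-like cells, and their part in the Il1b differences was not tested. With graph clusters in place of gates, Il1b was at -0.57 in CD8 T-like and -0.66 in endothelial-like cells.

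Within macrophage-like cells the members followed MHC class II unequally. Thinned cells were ranked by the summed UMIs of H2-Aa, H2-Ab1, H2-Eb1 and Cd74. These genes belong to the MHC class II pathway, which presents antigen to CD4 T cells. Cells at or under 31 UMIs formed the low range and those at or over 70 the high range. The high range held 15.3% of macrophage-like cells in the Lmo7+/+ library and 35.1% in the library labelled Lmo7-/-, the low range 35.9% and 16.5%, and the cuts are positions on a continuum with 25 and 49 cells exactly at the upper one. From the low to the high range Il18bp went from 53.1 to 167 CPM in the Lmo7+/+ library and from 88.8 to 379 CPM in the other. Il1rn went from 213 to 728 CPM and from 306 to 643 CPM, and Il1r2 from 201 to 795 CPM and from 238 to 515 CPM. Il1b went from 2110 to 4491 CPM and from 2172 to 4295 CPM, and Nlrp3 from 574 to 1174 CPM and from 560 to 1025 CPM. Il1a went from 134 to 231 CPM and from 107 to 245 CPM. Casp1 differed less and not in the same direction, from 67 to 71 CPM and from 93.7 to 80.3 CPM. Its log2 differences were 0.08 (-0.15 to 0.32) and -0.22 (-0.41 to -0.03). Il1r1 ran opposite to Il1b, by log2 differences of -2.11 (-4.45 to -0.45) and -3.21 (-4.76 to -1.92). It had 37 counts in the low and 3 in the high range of the Lmo7+/+ library, and 30 and 6 in the other. Whether RNA of other cell classes contributed to the low range was not tested.

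Compared within a range, the log2 ratio of Il18bp between the libraries was 0.74 (0.53 to 0.95) in the low, 0.79 (0.68 to 0.91) in the middle and 1.18 (1.05 to 1.33) in the high range. Il1rn did not keep its direction: it was higher by 0.52 (0.42 to 0.63) in the low range, at 0.06 (-0.002 to 0.12) in the middle and lower at -0.18 (-0.25 to -0.1) in the high range. Il1r2, near equal over all macrophage-like cells, was at 0.24 (0.12 to 0.36), -0.23 (-0.28 to -0.17) and -0.62 (-0.7 to -0.55). Casp1 was at 0.48 (0.29 to 0.68), 0.29 (0.14 to 0.43) and 0.18 (-0.05 to 0.41). With the cells in 10 bins of MHC class II UMIs and the library labelled Lmo7-/- weighted to the bins of the Lmo7+/+ library, a calculation added after the data were seen, the log2 ratio of Il18bp was 0.82 and higher in 10 of 10 bins, and that of Casp1 0.33, also in 10 of 10. The lowest bin was at 0.51 for Il18bp and at 0.02 for Casp1, and all bins share the same libraries. Il1rn came to 0.10, higher in 6 of 10 bins, Il1b to -0.05, higher in 1, Nlrp3 to -0.18, Il1r2 to -0.30 and Il1a to -0.32.

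**Figure D4:**
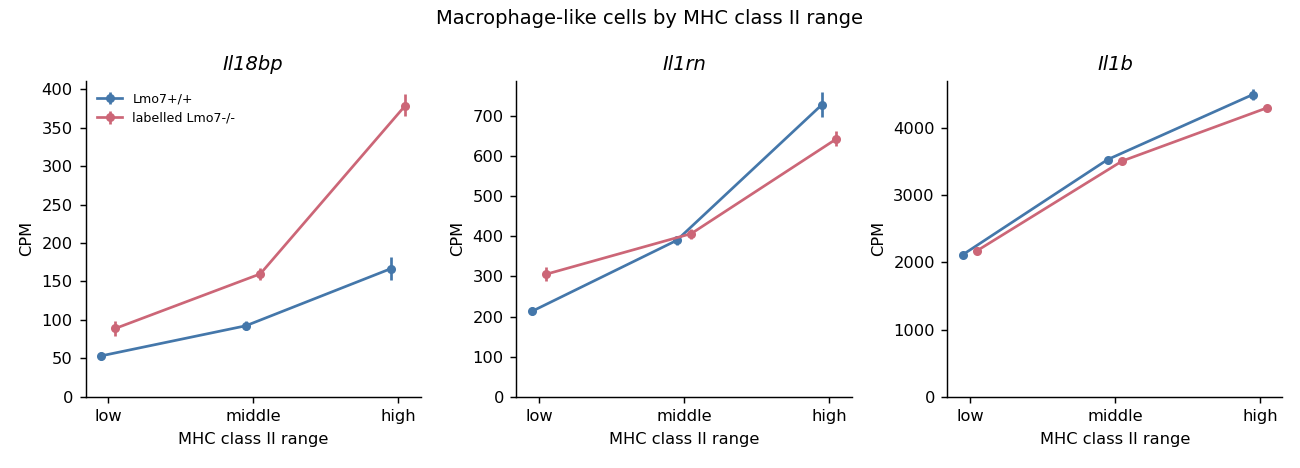
CPM of Il18bp, Il1rn and Il1b (linear axes from 0) in the low, middle and high MHC class II ranges of macrophage-like cells, with 95% Poisson intervals, by library. The library labelled Lmo7-/- was above the other in every range for Il18bp (379 against 167 CPM in the high range), while for Il1rn the lines cross.

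Il18bp also followed the genes Ccl8, Igf1 and Vcam1, which mark another macrophage state. From 0 to at least 2 thinned UMIs of these genes it went from 49.7 to 183 CPM in the Lmo7+/+ library and from 110 to 397 CPM in the other, a log2 difference of 1.88 and 1.85. The cells with at least 2 made up 22.9% and 31.6% of thinned macrophage-like cells. Il1a ran the same way, at 1.08 and 1.27, as did Il18, at 0.63 (0.32 to 0.94) and 0.66 (0.36 to 0.97). Il1r2 ran the other way, at -1.22 and -1.15. Along 6 cycling genes Il18bp was lower in cells with at least 2 UMIs than in cells with 0, by log2 differences of -1.25 and -1.31. Along 8 type I interferon genes the difference was 0.52 and 0.24. Across the ranges of all 6 state lists, which share the same cells, the log2 ratio of Il18bp between the libraries lay between 0.74 and 1.47.

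Among macrophage-like cells ordered by their thinned Il1b UMIs, Il1a, Il1rn, Il1r2 and Nlrp3 were higher where Il1b was higher, and the interleukin 18 genes were not. From cells with 0 Il1b UMIs to cells with 8 or more, Il1a went from 83.4 to 345 CPM in the Lmo7+/+ library and from 101 to 276 CPM in the other. Il1rn went from 212 to 573 CPM and from 284 to 668 CPM, Il1r2 from 218 to 707 CPM and from 176 to 675 CPM, and Nlrp3 from 414 to 1226 CPM and from 506 to 1177 CPM. Il18bp went from 106 CPM (94.9 to 117) to 83.6 CPM (75.5 to 92.2) in the first library. In the second it was at 224 CPM (206 to 243) and 215 CPM (203 to 228), intervals that overlapped. Il18 lay between 17.4 and 23.4 CPM in all bins. Casp1 was lower in the cells richest in Il1b. In the Lmo7+/+ library it was at 63.9 CPM (56.9 to 71.6) against 77.1 CPM (68 to 87.2), intervals that overlapped. In the other it was at 75.3 CPM (68.3 to 82.9) against 100 CPM (88.5 to 113). Cells were chosen by their own Il1b UMIs, so these values describe cells of 1 library each and carry no test.

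**Figure D5:**
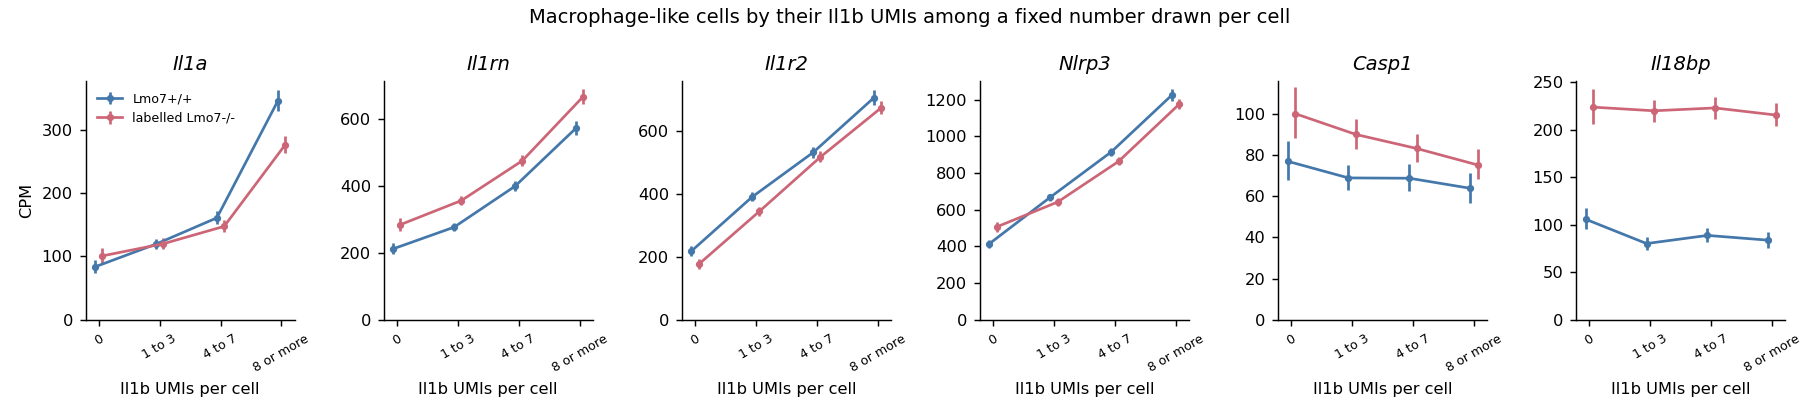
CPM of 6 members (linear axes from 0) in macrophage-like cells with 0, 1 to 3, 4 to 7 or 8 or more Il1b UMIs among 1500 drawn per cell, by library, with 95% Poisson intervals. Il1a, Il1rn, Il1r2 and Nlrp3 were higher from each bin to the next. Il18bp lay between 80 and 106 CPM in the Lmo7+/+ library, highest with 0 Il1b UMIs, and between 215 and 224 CPM in the other.

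Of 48 further genes of the pathway, 46 had a row. Past the fold means the same limit of 0.5 on the log2 scale as above, and the shares of all genes past it, given again for each class, are the ones to set beside these counts. In macrophage-like cells 39 passed the count minimum, of which 3 were past the fold upwards (4.79% of all genes) and 1 downwards (8.46%), with a median log2 ratio of 0.05 against -0.10 for all genes. The 3 were Il33, an alarmin of the family, at 2.29 and 6.49 CPM, Nlrp1b at 2.12 and 4.3 CPM and the interleukin 33 receptor Il1rl1 at 2.64 and 3.76 CPM, and the 1 was Nlrp1a at 0.97 and 0.447 CPM, all under 10 CPM. None of the 11 adaptors and kinases, among them Myd88 and Irak4, nor of the 4 feedback genes passed the fold there. Il33 was also higher in fibroblast-like cells, at 847 against 227 CPM, a log2 ratio of 1.90 (1.62 to 2.18), and in leukocyte-low cells at 1.04 (0.87 to 1.22), but lower in endothelial-like cells at -2.98 (-4.68 to -1.65) on 43 and 5 counts. In leukocyte-low cells 36 passed the minimum, with 1 higher beside 5.24% of all genes, Il33, and 3 lower beside 5.86%, Il1rl2, Naip2 and Naip5, the last at 3.02 and 1.58 CPM. In monocyte-like cells 32 passed, with 2 higher beside 7.03% (Il1rl2 and Tab1) and 1 lower beside 10.8%, the inhibitory kinase gene Irak3 at -0.75 (-1.42 to -0.1). In dendritic-like cells 3 of 21 were higher beside 10.9% (Tollip, Aim2 and Ninj1) and none lower beside 14%. In CD8 T-like cells 2 of 28 were lower beside 14.3% (Tab3 and Ninj1) and none higher beside 7.43%. CD4 T-like cells had 3 of 15 higher beside 15.3% (Tab2, Txnip and Card19) and 4 lower beside 18.2% (Il18r1, Myd88, Irak1 and Nfkbiz). Other T-like cells had 5 of 21 higher beside 14.4% (Il18rap, Myd88, Nek7, Nfkbia and Zc3h12a) and 1 lower beside 15.9%, the pore-forming gene Gsdmd. Endothelial-like cells had 4 of 19 higher beside 15.8% (Sigirr, Pycard, Casp4 and Casp8) and 3 lower beside 17.7% (Il33, Gsdmd and Nfkbiz). Fibroblast-like cells had 5 of 21 higher beside 11.4% (Il1rl2, Il33, Myd88, Irak3 and Casp4) and 5 lower beside 27.6% (Il1rl1, Casp8, Nek7, Txnip and Card19). The counts in each class are small and are given as a description, not as a result about the list.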

How the data were processed

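Live cells of MC38 tumors were sorted and sequenced as single-cell RNA-seq, 1 library per host genotype. The deposited matrices hold UMI counts per gene and barcode, which the authors made with Cell Ranger 2.1.1 on mm10 according to the submitters' processing notes, although the file headers carry software version 3.0.0. Barcodes have 24 bases and the deposited barcodes were filtered here (at least 200 genes, 500 UMIs and at most 15% mitochondrial UMIs).

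Classes came from gates on summed marker UMIs per 10000 and on numbers of distinct markers. For example, macrophage-like cells needed at least 12 leukocyte-marker and 30 macrophage-marker UMIs per 10000 and fewer than 2 T cell markers. These limits, the class names, the bins and ranges within macrophage-like cells and the dendritic-like split were chosen with the data in view. Cells that met no gate (17.3% and 13.9%) or the T and macrophage gates together (0.726% and 1.2%) entered no class, and doublets were otherwise kept. Counts were summed per class and library and divided by the class total (CPM), with exact Poisson or binomial intervals. Shares of cells used 1500 UMIs drawn per cell, leaving out shallower cells (797 and 1056 macrophage-like cells). Members are named in every class with at least 50 cells in each library and 20 counts over both; other pathway genes were counted as a list and named where past a log2 ratio of 0.5 or -0.5, and the 3 nearest genes by Pearson r were named for each member, except 1 that is not reported here. The 10 genes, the lists and the markers were chosen with earlier results of these data known. The ratio and its interval were tested on simulated counts, drawn independently at the depth of whole libraries. That test did not cover small classes or counts gathered in few cells. The gates were run on cells simulated at a fixed depth from the summed profiles of the classes they had made. That run cannot show whether the class names are right. Alternatives were graph clusters, a stricter cell filter, a stricter gate, doublets removed by Scrublet, TMM (edgeR 4.0.16), means over cells, shares without thinning, no count minimum and, chosen after seeing the data, leaving out barcodes found in both libraries. Python 3.11.15, scipy 1.17.1 and scanpy 1.11.5 were used. Of the 32285 gene identifiers, 32158 were in GENCODE M21.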

Additional observations from a re-analysis of the deposited data

Results flagged for a closer look

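A few members stood past the fold in opposite directions in 2 classes, with intervals that left out 0 in each, on 1 library per genotype, so these differences between classes were not tested. Il1r1 was higher in fibroblast-like cells of the library labelled Lmo7-/- (log2 ratio 0.93) and lower in endothelial-like cells (-1.08). Il1b was higher in other T-like cells (1.98, most of it from 1 cell) and lower in CD8 T-like (-1.30), endothelial-like (-2.36), fibroblast-like (-1.20) and leukocyte-low cells (-0.56). The endothelial-like value was on 28 and 5 counts. With graph clusters the CD8 T-like and endothelial-like differences were smaller, as given above. Il1r2 was higher in other T-like cells (3.05, on 6 and 44 counts) and lower in leukocyte-low cells (-0.67).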

How the results depend on the processing

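Of 341 alternative values for 88 results, 300 stayed within the counting interval of the reported value (shares of genes within 1.5 times), 41 lay outside it and no value past the fold turned its direction. In macrophage-like cells, TMM raised all log2 ratios by 0.10, to 0.0623 for Il1a, 0.29 for Il1b, 0.45 for Il1rn, 0.0799 for Il1r2, 0.0769 for Il18, 1.43 for Il18bp, 0.41 for Casp1 and 0.12 for Nlrp3. Graph clusters gave 0.17 for Il1b, 0.30 for Il1rn and 0.10 for Il1r2, and 12.7 and 13.9 Il1rn counts per 100 Il1b counts. Without doublets Il1b was at 0.16 and Nlrp3 at -0.0141, the stricter gate gave Il1b 0.16, and means over cells gave Il1rn 0.30 and Nlrp3 -0.0183. The signs of Il1a, Il1r2, Il18 and Nlrp3 therefore depended on these choices. With clusters the log2 ratio of Il18bp in monocyte-like cells was 0.50, and without a count minimum 13.4% of genes in macrophage-like cells were higher and 18.1% lower, against 4.79% and 8.46%. Without thinning, 24% and 39.7% of macrophage-like cells had an Il18bp UMI. Clusters gave no dendritic-like, fibroblast-like, CD4 T-like or other T-like class, so those values have no such alternative. No value moved out of its interval under the stricter filter or without shared barcodes. No paired analysis was possible because each genotype is 1 library. Il1rap and Il1r1 had few counts in leukocytes, as did Il18 in leukocytes other than macrophage-like and monocyte-like cells, which limits how closely they can be compared. Having 1 library per genotype limits every comparison between hosts.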
